A study of Mus musculus with 48 samples.

Results

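The comparison described here is that of 12 libraries of non-stretched differentiated C2C12 cells with 12 libraries of non-stretched C2C12 myoblasts, 24 of the 48 libraries of the series. The libraries were chosen by their labels: each of the time points of 1 h, 3 h and 6 h had 4 non-stretched libraries per stage, and the 24 stretched libraries of the series entered only as an alternative. C2C12 is an established mouse myoblast line derived from skeletal muscle, and the labels name no introduced allele, agent or drug in either stage. Both stages grew on flexible plates with a collagen I coat, without being stretched. Myoblasts were plated sparsely and kept in medium with fetal bovine serum. Differentiated cells were plated more densely and were kept for several days in medium with a low level of horse serum before the time points began. Myoblasts came from the experiments coded B27 (replicates 7 and 8) and B31 (replicates 9 and 10), and differentiated cells from the experiments coded B25 (replicates 7 and 8) and B28 (replicates 9 and 10). Stage, experiment, medium, plating density and time in culture thus cannot be told apart, and every difference between the stages below is a difference between these sets of cultures. Nothing in the labels says whether replicates of 1 experiment were separate cultures, and the study's methods speak of them only as separate samples. For differentiated cells, those methods count 3 independent experiments, whereas the labels of these libraries hold only the codes B25 and B28. That difference was not settled here, and the experiments named below are those of the codes. The fit takes the 12 libraries of a stage as independent, although they come from the few experiments named above, each sampled at every time. The p-values thus measure the spread between these libraries, not that between independent experiments. The labels name nuclear RNA as the molecule, while the study's methods describe RNA taken from whole cells, and this was not settled here.

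In culture, myoblasts divide while growth factors are plentiful, and they leave the cell cycle, align, fuse and build sarcomeres when serum is withdrawn. The basic helix-loop-helix factors Myod1, Myf5, Myog and Myf6, together with Mef2 factors, bind the control regions of muscle genes, and E2F, B-Myb and FoxM1 complexes control the genes of the S phase and of mitosis. A differentiated C2C12 culture is a mixture, because some cells stay single and are known as reserve cells. Since the libraries are bulk RNA, fewer cells of a type and less RNA per cell cannot be told apart in any of the values below.

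Levels are given as CPM, the count of a gene scaled to its library's total after trimmed mean of M values (TMM) scaling. Total counts ran from 48447318 to 68856205 in myoblasts and from 55589577 to 70139730 in differentiated cells. Over all genes tested, log2 CPM of libraries of the same group correlated at 0.9905 to 0.9939, and that of libraries of different stages at 0.8805 to 0.9005, as a description over 36 and 144 pairs. Within a stage, 33 of 15723 genes (0.21%) differed between experiments B31 and B27, and 208 of 16309 (1.28%) between B28 and B25, at an adjusted p under 0.05 and an absolute log2 difference of at least 0.58 in the quasi-likelihood test of edgeR, adjusted after Benjamini and Hochberg. The first of these counts was 21 without the 1 h replicate 7 library. The median absolute log2 difference between experiments was 0.0541 in myoblasts and 0.0740 in differentiated cells, against 0.617 between the stages. Long transcripts varied among libraries, and in differentiated cells the median deviation of 604 genes with transcripts of at least 8000 bases ran from -0.178 (1 h, replicate 10) to 0.133 (6 h, replicate 7) on the log2 scale. It ran from -0.046 to 0.133 in experiment B25 and from -0.178 to 0.060 in B28. The symbol Rn18s-rs5, a ribosomal RNA sequence, ranged from 5333 to 37431 CPM across the 24 libraries, and its part in the results was not tested.

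Of 16582 genes that passed the filter on low counts, 4492 (27.1%) were higher and 4134 (24.9%) were lower in differentiated cells by the same test and limits. The counts of each gene list below are to be read beside these shares. At a log2 fold change of at least 2, which is 4-fold, the counts were 1574 higher (9.49%) and 667 lower (4.02%). The lowest library of one stage lay above the highest library of the other for 10521 genes (63.4%), of which 5451 were higher and 5070 lower in differentiated cells. The median log2 fold change of all genes tested was 0.0070, and other scalings shifted the genes by medians of -0.0215 (library totals) to 0.0164 (the size factors of DESeq2). The 4-fold changes were uneven in kind: 1172 of the 1574 higher genes had a mean under 1 CPM in myoblasts, and 162 of these reached at least 10 CPM in differentiated cells. Of the 667 lower genes, 342 had a mean under 1 CPM in differentiated cells, but only 13 of these had stood at 10 CPM or more in myoblasts. Thus genes that went from near absence to a substantial level were far more frequent in the direction of differentiation, and the 4-fold falls were mostly of genes that stayed detectable or had been low before.

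**Figure D1:**
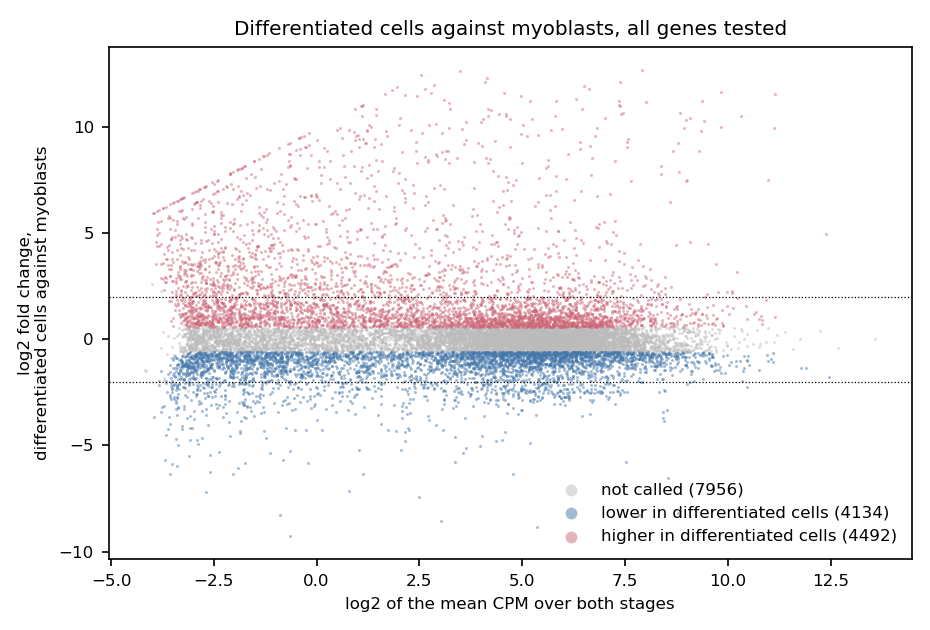
Each point is 1 of the 16582 genes tested, with the log2 of its mean CPM over both stages on the horizontal axis and its log2 fold change (differentiated cells against myoblasts) on the vertical axis. The 4492 higher and 4134 lower genes are coloured, dotted lines mark 4-fold changes, and the upward tail reaches further from 0 than the downward one.

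The share of calls differed by transcript length, and this stands beside every sarcomere result below because many sarcomere transcripts are long. Genes whose longest transcript was under 1 kb had a median log2 fold change of -0.39, with 18.3% higher and 38.8% lower, and genes of 8 kb and over had a median of 0.21, with 33.7% higher and 16.2% lower. The part of transcript length in the results was not tested.

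The upstream sequences of the genes are shown first, because the E-box letters CAGCTG are among those that Myod1 and Myog are known to bind and because CCAAT and TTTGAA are letters found in cell cycle promoters. In the 250 bases before the start of 10873 genes tested that had a promoter sequence in RefSeq (build GRCm38.p6), on both strands, CAGCTG was present in 12.3%. Its share varied among the muscle lists. It was present in 8 of 16 promoters of thin filament genes and in 43.8% of 16 of excitation-contraction coupling genes. The share was 44.4% of 9 promoters of acetylcholine receptor and synapse genes and 33.3% of 21 of thick filament genes. It was lower for other muscle lists, at 15.4% of 13 promoters of fusion and adhesion genes, 14.3% of 14 of myogenic transcription factors and 0 of 10 of the dystrophin complex. Among 1029 promoters of 4-fold higher genes it was 22.2%, and among 35 of mitosis genes 11.4%. The letters of the MEF2 site were in 1.78% of all promoters and in 33.3% of 18 Z disc promoters and 23.8% of the 21 thick filament promoters. CCAAT was in 36.3% of all promoters and in 71.4% of the mitosis promoters and 88.2% of 17 sterol synthesis promoters, and at least 2 copies were in 13.2% of all and 48.6% of mitosis promoters. TTTGAA, the cell cycle homology region, was in 10.5% of all, in 34.3% of mitosis promoters and in 13.2% of 38 DNA replication promoters. A match is a description of the letters, not a binding site.

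The promoters printed here belong to muscle genes that rose and to mitotic genes that fell, and each is the 250 bases before the RefSeq start, 5′ to 3′ on the gene's strand in lower case. They were picked among list members whose window held a searched motif, so they do not stand for their lists. At least 2 copies of CAGCTG were in 22.2% of the 9 acetylcholine receptor and synapse promoters and in 1.07% of all. For Chrna1 (alpha subunit of the muscle acetylcholine receptor, chr2:73580339-73580588, minus strand), Chrng (its fetal gamma subunit, chr1:87205561-87205810, plus strand) and Ckm (muscle creatine kinase, chr7:19410844-19411093, plus strand), capitals mark CAGCTG.
Chrna1: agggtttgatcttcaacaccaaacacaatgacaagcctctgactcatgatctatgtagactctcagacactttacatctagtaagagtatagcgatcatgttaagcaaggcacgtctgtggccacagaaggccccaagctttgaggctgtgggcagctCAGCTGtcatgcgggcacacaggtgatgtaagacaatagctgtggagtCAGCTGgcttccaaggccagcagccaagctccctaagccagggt
Chrng: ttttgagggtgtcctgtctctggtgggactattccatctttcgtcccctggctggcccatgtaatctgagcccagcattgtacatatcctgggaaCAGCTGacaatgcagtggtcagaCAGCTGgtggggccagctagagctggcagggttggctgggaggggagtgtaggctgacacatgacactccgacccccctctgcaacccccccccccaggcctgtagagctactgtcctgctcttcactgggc
Ckm: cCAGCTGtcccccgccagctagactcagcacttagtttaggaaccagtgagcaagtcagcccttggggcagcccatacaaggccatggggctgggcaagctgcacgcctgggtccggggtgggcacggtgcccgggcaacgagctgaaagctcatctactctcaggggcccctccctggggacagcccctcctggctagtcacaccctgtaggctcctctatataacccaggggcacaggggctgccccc
For Acta1 (skeletal muscle alpha-actin, chr8:123894776-123895025, minus strand), capitals mark CAGCTG and the serum response factor (SRF) CArG box, which 1.2% of all promoters held.
Acta1: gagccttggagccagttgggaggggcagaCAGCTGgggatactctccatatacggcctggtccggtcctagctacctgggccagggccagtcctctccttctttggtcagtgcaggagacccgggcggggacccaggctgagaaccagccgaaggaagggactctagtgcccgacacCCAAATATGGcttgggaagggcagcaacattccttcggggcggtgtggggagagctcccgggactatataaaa
For Cdk1 (the kinase that drives entry into mitosis, chr10:69352913-69353162, minus strand) and Ccnb2 (cyclin B2, its partner, chr9:70421555-70421804, minus strand), capitals mark CCAAT and TTTGAA on either strand.
Cdk1: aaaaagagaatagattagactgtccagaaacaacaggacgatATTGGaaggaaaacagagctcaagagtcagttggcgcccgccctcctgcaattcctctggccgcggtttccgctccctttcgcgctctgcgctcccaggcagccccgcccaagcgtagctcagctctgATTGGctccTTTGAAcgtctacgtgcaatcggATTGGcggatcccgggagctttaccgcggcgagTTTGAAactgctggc
Ccnb2: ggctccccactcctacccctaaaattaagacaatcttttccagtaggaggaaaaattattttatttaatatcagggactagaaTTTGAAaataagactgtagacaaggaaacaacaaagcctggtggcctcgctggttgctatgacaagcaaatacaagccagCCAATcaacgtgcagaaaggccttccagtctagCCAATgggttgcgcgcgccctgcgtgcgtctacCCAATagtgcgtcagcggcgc
Chrna1 held its pair of E-boxes 92 and 44 bases before the start, and Chrng held its pair 155 and 132 bases before it. The single E-box of Ckm began 249 bases before the start, at the edge of the window. Cdk1 held 3 CCAAT and 2 TTTGAA, the closest 15 bases before the start, and Ccnb2 held 3 CCAAT and 1 TTTGAA. The window of Myog held none of the letters searched.

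Among the muscle regulatory factors, Myog changed most, and of the earlier-acting factors Myod1 changed little and Myf5 fell. Of 24 myogenic transcription factors tested, 13 were higher and 4 lower in differentiated cells, with a median log2 fold change of 0.61. Myog (chr1:134289989-134292548), the factor switched on when myoblasts commit to differentiation, was at 0.667 to 3.30 CPM (median 1.18) in myoblasts and at 761 to 959 CPM (median 891) in differentiated cells. That was a log2 fold change of 9.23 ± 0.112 (SE), with an adjusted p of 1.15e-28. Myod1 (chr7:46376474-46379099), the determination factor already present in myoblasts, was at 93.7 to 119 CPM (median 104) and 149.5 to 175 CPM (median 166), a log2 fold change of 0.65 ± 0.0321. The libraries of the stages did not overlap for either gene, but the difference for Myod1 was close to the limit used and lay below it with the 1 h libraries alone (0.56) and without experiment B31 (0.57). Myf5, the other early determination factor, fell from 38 to 53.6 CPM (median 45.6) to 19.3 to 23.8 CPM (median 21.3) (log2 fold change -1.08). Myf6, the late factor of mature fibers, rose only at a low level, from a median of 0.267 to 0.616 CPM (log2 fold change 1.27). Pax7, which marks muscle stem cells, was at 25.4 to 30.5 CPM (median 28.2) in myoblasts and 28.9 to 36.3 CPM (median 32.1) in differentiated cells, and it did not pass the limit.

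The MEF2 factors described here, Smyd1 and Tead4 rose as well, while some other members of the list did not. Mef2c, a MADS-box factor of differentiating muscle, rose from 1.90 to 3.19 CPM (median 2.30) to 247 to 319 CPM (median 273) (log2 fold change 6.85 ± 0.0616). Its relatives Mef2a and Mef2d were already expressed in myoblasts and rose by less, with log2 fold changes of 1.90 and 1.84. Smyd1, a muscle histone methyltransferase and myosin chaperone, rose by 6.56, and Tead4, a TEA-domain factor, by 2.01 on the log2 scale. Srf was at 105 CPM in myoblasts and 89.8 in differentiated cells (log2 fold change -0.20, not called). The members that fell were Myf5, Eya1 (-0.97), Eya2 (-3.42) and Myocd (-3.83), the smooth muscle and cardiac coactivator, and the latter pair stood below 1 CPM in both stages.

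Of 18 known inhibitors of the myogenic factors, 6 were higher and 7 lower, beside 27.1% and 24.9% over all genes. Their median log2 fold change was 0.04. The Id proteins, which capture the E-protein partners of Myod1, fell: Id1 went from 48.2 to 69.7 CPM (median 56) to 16.3 to 18.8 CPM (median 17.9), and Id3 from 94.4 to 129 CPM (median 113) to 12.7 to 19.9 CPM (median 14.2). Id2 fell by a similar factor (log2 fold change -1.73). Twist2 and Msc, further basic helix-loop-helix repressors, fell with log2 fold changes of -2.42 and -2.88. The members that rose included Heyl (5.22), a Notch effector, Bhlhe40 (2.36), a clock-related repressor, and Zeb1 (1.85), a zinc-finger repressor. The list therefore had no single direction, and its name does not describe its members that rose.

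The genes of the fusion proteins myomaker and myomixer rose from low levels to high ones. Of 24 fusion and adhesion genes, 11 were higher, 2 lower and 11 not called, beside 27.1% higher and 24.9% lower over all genes, and 8 were at least 4-fold higher, beside 9.49%. Tmem8c, which encodes the fusion protein myomaker, was at 1.99 to 3.06 CPM (median 2.23) in myoblasts and at 616 to 704 CPM (median 657) in differentiated cells (log2 fold change 8.16 ± 0.0435, adjusted p 4.63e-35). Gm7325, which encodes its small partner myomixer, was at 0.0311 to 0.287 CPM (median 0.0957) and 77 to 90.7 CPM (median 83.5) (log2 fold change 9.62). The libraries of each stage lay far apart for both genes. Cav3, the muscle caveolin, and Dysf, the membrane repair protein dysferlin, rose by 9.86 and 4.52 on the log2 scale. Adhesion molecules that myoblasts already carried rose by less, with log2 fold changes of 1.69 for Cdh15 (M-cadherin), 2.46 for Ncam1 and 2.21 for Itga7, the muscle laminin receptor. Myof, encoding myoferlin, stood at medians of 649 and 622 CPM and was not called.

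The sarcomere genes rose together. All 25 thick filament and M band genes tested were at least 4-fold higher in differentiated cells, beside a background of 9.49%, with a median log2 fold change of 10.10. Their summed level was 29.1 to 46.2 CPM in myoblasts and 14704 to 18009 CPM in differentiated cells. Of 20 thin filament genes, 18 were higher (median log2 fold change 9.06), and of 25 Z disc and titin genes, 22 were higher (median 4.56). In lists with members at 0 counts in myoblasts, here and below, the medians were the same with those members at the bound set by a floor of 3 counts over the myoblast libraries. Myh3 (chr11:67078300-67102291), the embryonic myosin heavy chain, was at 0.684 to 3.51 CPM (median 1.20) in myoblasts and at 3949 to 4968 CPM (median 4579.9) in differentiated cells, a log2 fold change of 11.57 ± 0.150. Acta1 (chr8:123891769-123894751) went from 2.83 to 6.64 CPM (median 4.88) to 4123 to 4749 CPM (median 4441) (log2 fold change 9.97 ± 0.0538, adjusted p 4.63e-35). These genes showed no overlap between stages.

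Cardiac and slow isoforms rose with the fast skeletal ones. Actc1, cardiac alpha-actin and an early actin of developing muscle, went from 0.304 to 1.22 CPM (median 0.446) to 1105 to 1460.5 CPM (median 1363) (log2 fold change 11.23). Tnnt2, cardiac troponin T, was already at 34.8 to 52.6 CPM (median 44.2) in myoblasts and reached 969.7 to 1144 CPM (median 1008), so that its log2 fold change of 4.57 was the smallest among the troponins of the list. The fast skeletal troponins Tnnt3, Tnni2 and Tnnc2 had log2 fold changes of 10.67, 9.30 and 11.16. The slow skeletal troponins Tnnt1 and Tnni1 had log2 fold changes of 9.42 and 10.35, and Tnnc1, shared by slow and cardiac fibers, 8.87. The light chains Myl1, Mylpf and Myl4 rose from medians of 1.33, 1.71 and 0.938 CPM to 1287, 2567 and 969 CPM. Myl2, the slow and cardiac regulatory light chain, had no count in the 12 myoblast libraries and was at 3.07 to 11.9 CPM (median 7.20) in differentiated cells, at least 1644-fold higher against a floor of 3 counts over those libraries.

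The tropomyosins moved in opposite directions: Tpm1 and Tpm2 rose with log2 fold changes of 1.02 and 3.15, and Tpm3 fell (-1.22). These totals per gene do not show which forms of each tropomyosin changed. About 27% of the 31-base stretches of Tpm3 also occur in other genes' transcripts. Nebulin (Neb), the thin filament ruler, went from 0.403 to 2.19 CPM (median 1.06) to 609 to 2112 CPM (median 1293). Klhl40 and Klhl41, which stabilize thin filament proteins, rose with log2 fold changes of 8.08 and 9.04. Tmod4, a tropomodulin of adult muscle, stood at medians of 0.300 and 0.385 CPM and was not called.

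Titin (Ttn, chr2:76703980-76982547), the giant spring that reaches from Z disc to M band, was at 11.4 to 48.9 CPM (median 20.2) in myoblasts and 990.1 to 7858 CPM (median 3533) in differentiated cells (log2 fold change 7.50 ± 0.345). The stages did not overlap, but the differentiated libraries spread widely. The lowest value was that of the 1 h replicate 10 library, whose long transcripts were also the lowest on average. The highest was that of the 6 h replicate 7 library, whose long transcripts were the highest. Ttn was at 3513 to 7858 CPM in experiment B25 and at 990.1 to 5328 CPM in B28. Every B28 library except the 6 h replicate 10 library (5328 CPM) lay below the lowest of B25. Actn2 (chr13:12269426-12340760), the alpha-actinin of the Z disc, went from 0 to 0.169 CPM (median 0.0370) to 161 to 227 CPM (median 194) (log2 fold change 11.80 ± 0.116). Myoz2 and Csrp3, a calsarcin and a LIM protein of the Z disc, rose by 11.24 and 10.38. Desmin (Des), the muscle intermediate filament, was abundant in both stages at 799.6 to 937 CPM (median 859.8) and 2911 to 3217 CPM (median 3061), with a log2 fold change of 1.84. The intermediate filament Vim moved the other way, from 7918 to 9146 CPM (median 8735) to 2327 to 2829 CPM (median 2472) (-1.78). The Z disc member that fell was Fhl3 (-0.92), a LIM protein, and Ankrd1 and Pdlim5 were not called.

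**Figure D2:**
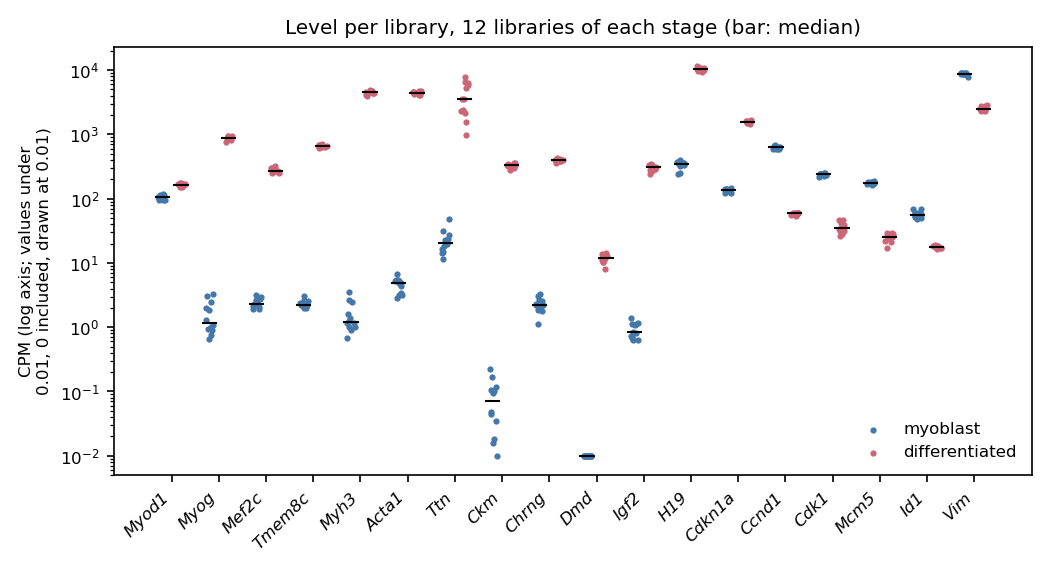
Points are the CPM of 18 genes in each of the 12 myoblast (blue) and 12 differentiated (red) libraries on a log axis, bars are medians, and values under 0.01 CPM are drawn at 0.01. Myod1 changed little next to Myog, Ttn spread from 990.1 to 7858 CPM among differentiated libraries, and Dmd was listed at 0 in all myoblast libraries.

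Per kilobase of transcript, embryonic myosin made up most of the sarcomeric myosin heavy chain RNA. The summed level of the 9 sarcomeric heavy chains was 1091 to 1387 CPM per kb in differentiated cells and 0.404 to 1.29 CPM per kb in myoblasts. In differentiated cells, Myh3 was at 655 to 824 CPM per kb (median 759), which was a median of 59.7% of that sum. Myh1, a fast heavy chain of adult muscle, followed at 265.0 to 336 CPM per kb (median 24.3% of the sum), below Myh3 in all 12 libraries. The neonatal Myh8 came next at 55.9 to 99.9 CPM per kb (median 6.16%), above Myh4 in each library, although their ranges overlapped. Myh4 (fast) and Myh7 (slow and cardiac) overlapped, at 42.8 to 62.6 and 37.3 to 68.3 CPM per kb. Their order differed between the experiments, with Myh4 above Myh7 in 6 of 6 libraries of B28 and in 2 of 6 of B25. In B25 these were the 6 h libraries, and Myh7 was above Myh4 at 1 h and 3 h. Myh2, Myh6, Myh7b and Myh13 followed without overlap, down to 0.0543 to 0.0978 CPM per kb for Myh13, a myosin of extraocular muscle. The neighbouring heavy chain genes share sequence, so that reads may be assigned between them: 37.9% of the 31-base stretches of Myh1 occur in transcripts of other genes, 30.4% of those of Myh4, 22.9% of those of Myh7 and 18.6% of those of Myh8.

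Myh3, Myh1 and Myh8 kept this order in the libraries of both experiments, while some slow and perinatal forms differed in level between them. Myh8 was at 529 to 614 CPM in the 6 libraries of experiment B25 and at 344 to 441 CPM in the 6 of B28. Myh7 was at 353 to 426 CPM in B25 and at 233 to 335 CPM in B28, and Myl2 at 9.39 to 11.9 and 3.07 to 5.01 CPM. In each case the experiments did not overlap. Myh1 did overlap between them, at 1658 to 1973 CPM in B25 and 1612 to 2046 CPM in B28.

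**Figure D3:**
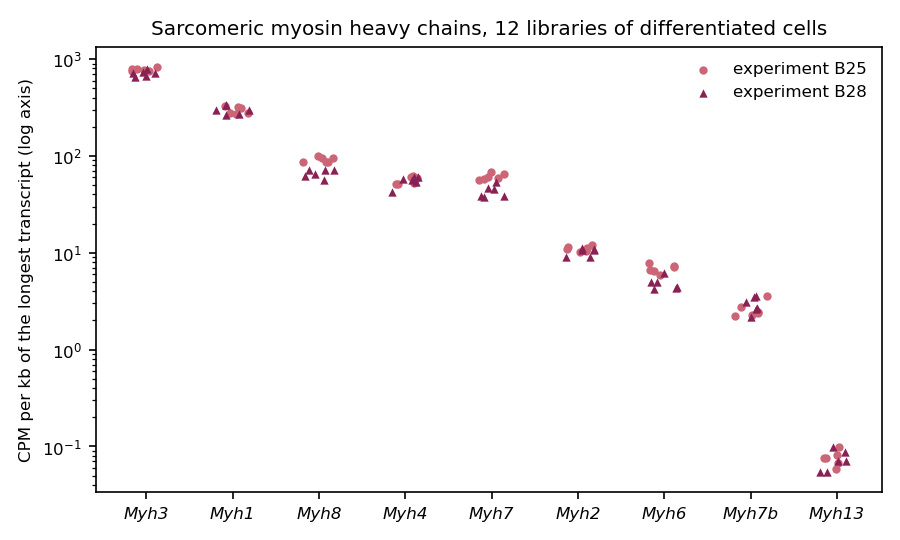
Points are CPM per kb of the longest transcript of each sarcomeric myosin heavy chain in the 12 differentiated libraries, on a log axis, with circles for experiment B25 and triangles for B28. Myh3 stood above Myh1 in each library, Myh4 and Myh7 overlapped, and Myh8 and Myh7 were higher in B25 than in B28.

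Calcium handling genes followed the sarcomere. Of 25 excitation-contraction coupling genes, 23 were higher and 1 lower, with a median log2 fold change of 5.07. Cacna1s, the voltage sensor of the transverse tubule, went from 0.0342 to 0.334 CPM (median 0.148) to 278 to 369.9 CPM (median 337) (log2 fold change 10.99 ± 0.0878). Ryr1 (chr7:29003344-29125179), the calcium release channel it opens, went from 2.85 to 5.64 CPM (median 3.69) to 635 to 1145 CPM (median 899.6) (7.89). Atp2a1, the fast-fiber calcium pump, rose from medians of 1.59 to 801 CPM, while the slow and housekeeping pump Atp2a2 rose only from 477 to 965 CPM. Of the calsequestrins that store calcium, Casq2 went from 0.744 to 1119.7 CPM and Casq1 from 0.0787 to 68 CPM. Pvalb, the calcium buffer of fast fibers, had no count in myoblasts and was at 2.69 to 4.62 CPM (median 4.03) in differentiated cells, at least 894-fold higher. Clcn1, the chloride channel of adult muscle, was the member that fell, from a median of 1.55 to 0.609 CPM, and Asph was not called.

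Most genes of the neuromuscular synapse rose. Of 14 genes, 12 were higher and none lower (median log2 fold change 2.46). Chrng (chr1:87204657-87212694) went from 1.13 to 3.23 CPM (median 2.18) to 360.1 to 431 CPM (median 394), a log2 fold change of 7.46 ± 0.0709. Chrne, the epsilon subunit that replaces it in adult muscle, had 8 counts over the 12 myoblast libraries and reached 1.09 to 1.58 CPM (median 1.38) in differentiated cells. Chrna1, whose promoter with its pair of E-boxes is printed above, went from 290.3 to 338 CPM (median 306) to 1357 to 1494 CPM (median 1446) (log2 fold change 2.21), and Chrnd and Chrnb1 rose by 2.95 and 1.57. Musk, the synaptic kinase, and its coreceptor Lrp4 rose by 2.55 and 3.75, whereas Agrn and Ank3 were not called. Colq and Ache, the collagen tail and the enzyme of synaptic acetylcholinesterase, rose from medians of 0.0176 and 0.0408 to 10.4 and 2.53 CPM.

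In the dystrophin complex, 13 of 21 genes were higher and 1 was lower (median log2 fold change 0.90). Dmd (chrX:82948870-85206141), encoding dystrophin, was listed at 0 counts in each of the 12 myoblast libraries and was at 8.13 to 14.4 CPM (median 11.8) in differentiated cells, at least 2747-fold higher. This bound describes the listed counts, since short dystrophin isoforms are known in many cell types and which transcripts were summed under Dmd is not given in the sources used here. Its relative Utrn was expressed in both stages and went from 172 to 281 CPM (median 212) to 366 to 644 CPM (median 520.5) (log2 fold change 1.25). The sarcoglycan Sgca, which is restricted to striated muscle, rose by 4.90, and the more widely expressed Sgcb and Sgce had log2 fold changes of 1.77 and 0.032, the last not called. Dag1, the laminin receptor dystroglycan, rose by 1.99.

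Energy metabolism changed by isoform. Of 40 genes, 20 were higher, 8 lower and 14 at least 4-fold higher. The summed level of the list was nevertheless lower in differentiated cells, at 7348 to 8042 CPM against 8227 to 9482 CPM in myoblasts. Ckm (chr7:19404776-19422841), muscle creatine kinase, went from 0 to 0.223 CPM (median 0.0719) to 280.3 to 360.4 CPM (median 334) (log2 fold change 12.14 ± 0.0932, adjusted p 1.71e-32). Mb, the oxygen carrier myoglobin, went from 0.0148 to 0.119 CPM (median 0.0506) to 134 to 203 CPM (median 179) (log2 fold change 11.95). Within glycolysis, muscle isoforms rose where general ones fell: Pgam2 rose (7.52) and Pgam1 fell (-1.38), Eno3 rose (1.16) and Eno1 fell (-1.33), and Pfkm rose (2.99) and Pfkl fell (-1.04). Between 28.5% and 37.1% of the 31-base stretches of Eno1 and Pgam1 occur in other genes. Glycogen phosphorylase showed the same with its muscle form Pygm (8.54), while the brain form Pygb was not called (-0.52). Among cytochrome c oxidase subunits, the striated muscle form Cox6a2 went from a median of 0.0165 to 23.2 CPM, while Cox6a1 stood at 101 and 84.3 CPM. Slc2a1, the general glucose carrier, fell by 1.52 on the log2 scale, and the insulin-responsive Slc2a4 stayed at a median of 1.68 CPM although it rose.

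The nuclear-encoded subunits of oxidative phosphorylation did not share this change. Only 3 of 38 were higher and 1 lower, with a median log2 fold change of 0.039. Their summed level was 6035 to 6526 CPM in myoblasts and 5866 to 6230.1 CPM in differentiated cells, ranges that overlapped. Among the members called were Ndufs3 (0.62) and Uqcrq (0.62), which rose, and Cycs (-0.78), encoding cytochrome c, which fell. Genes of the mitochondrial genome were not analysed here.

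**Figure D4:**
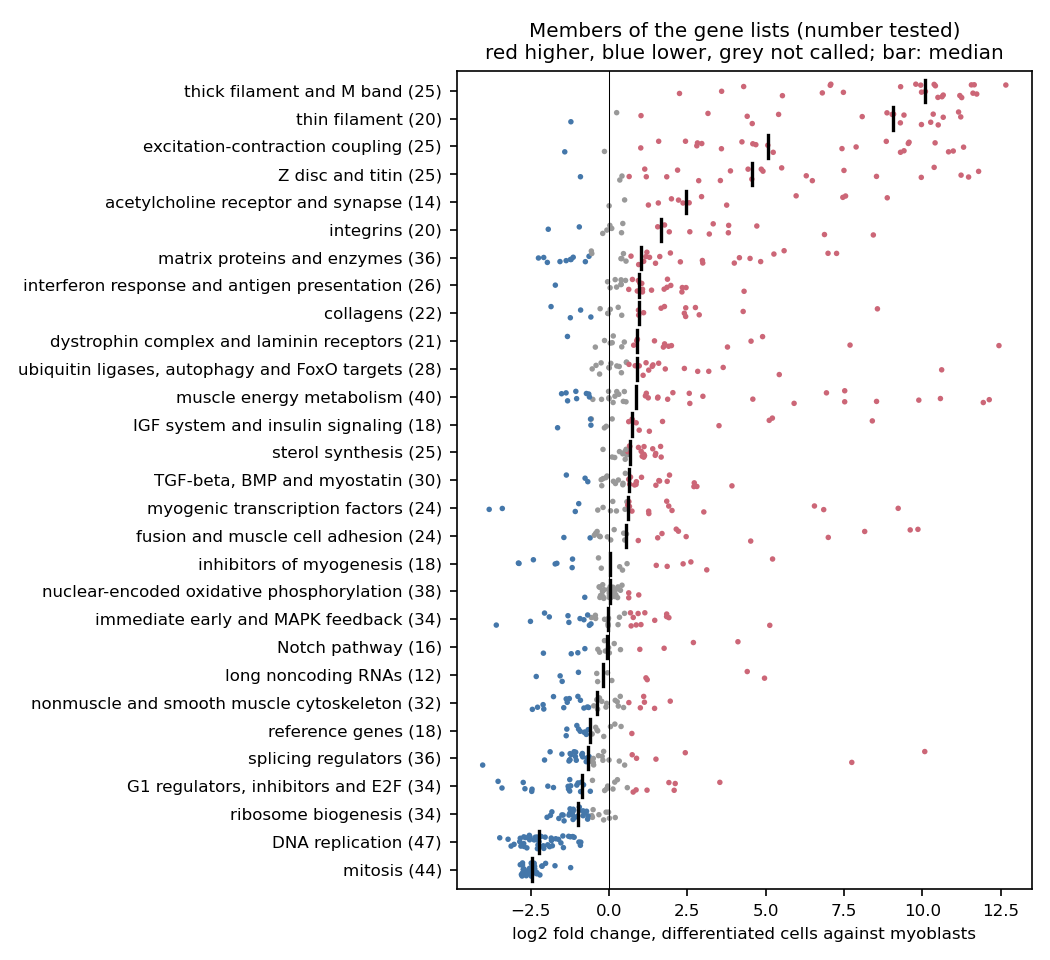
Each point is the log2 fold change of 1 gene, differentiated cells against myoblasts, grouped by gene list with the number tested in brackets, and black bars are list medians. Thick and thin filament genes had medians of 10.10 and 9.06, oxidative phosphorylation lay at 0.039, and the DNA replication and mitosis lists lay wholly below 0.

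Cell cycle genes fell as a block. All 47 DNA replication genes and all 44 mitosis genes tested were lower in differentiated cells, beside a background of 24.9% lower, and 29 and 42 of them were at least 4-fold lower, beside 4.02%. The median log2 fold changes were -2.24 and -2.48, so that a typical member kept a remainder of its level rather than vanishing. The summed level of the mitosis list was 7204 to 7878 CPM in myoblasts and 1067 to 1853 CPM in differentiated cells, and that of the replication list 4886 to 5252 and 1107 to 1438 CPM. Cdk1 (chr10:69335146-69352938) went from 218 to 249 CPM (median 241) to 26.7 to 46.3 CPM (median 34.6) (log2 fold change -2.74 ± 0.0418, adjusted p 1.11e-26). Mcm5 (chr8:75109569-75128439), a subunit of the replicative helicase, went from 165 to 188 CPM (median 177) to 17 to 29.7 CPM (median 25.7) (-2.84 ± 0.0365). Mki67, the proliferation antigen, went from 495 to 676 CPM (median 605) to 71.3 to 145 CPM (median 112) (-2.40). None of these 3 genes overlapped between the stages. Among replication genes the falls ran from -3.50 for Cdc6, the origin licensing factor, to -0.91 for Gins4, and among mitosis genes they were of like size, from -2.84 for Cdc25c to -1.23 for Cdc25b, which are phosphatases that activate Cdk1.

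Genes that govern the start of the cell cycle were more divided, with 7 of 34 higher and 19 lower, beside 27.1% and 24.9% over all genes. The D-type cyclins went separate ways: Ccnd1 (chr7:144929931-144939925) fell from 594 to 676 CPM (median 626) to 53.7 to 60.5 CPM (median 58.9) (log2 fold change -3.42 ± 0.0213), and Ccnd3 rose from 109 to 129.5 CPM (median 124) to 468 to 563 CPM (median 516) (2.08 ± 0.0314). Cdkn1a (chr17:29090976-29100727), the Cdk inhibitor p21, rose from 121 to 146 CPM (median 134) to 1461 to 1666 CPM (median 1548) (3.53 ± 0.0273). Rb1, the retinoblastoma protein that restrains E2F, rose (2.11), its relative Rbl2 rose by less (0.77), and Cdkn1b was not called. Of the E2F genes, E2f1 fell (-1.31) and E2f2 rose (1.21), though both are activators. Mybl2, encoding B-Myb, fell from 67.4 to 80.8 CPM (median 73) to 4.53 to 7.61 CPM (median 6.31) (-3.55), and Myc fell by 1.26 on the log2 scale.

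The immediate early and mitogen-activated protein kinase (MAPK) feedback genes, a class known to respond to growth factors and mechanical load, moved in both directions. Of 34 members, 12 were higher and 11 lower (median log2 fold change -0.036), shares near those over all genes (27.1% and 24.9%). Egr1 was at 107 to 132 CPM (median 114) in myoblasts and 191 to 228 CPM (median 212) in differentiated cells, Junb rose by 1.01 and Fos was at 5.21 to 6.96 CPM (median 6.14) in differentiated cells. Fosl1, a Fos relative that growth factors induce, fell from 144 to 178 CPM (median 165) to 11.4 to 15.4 CPM (median 12.9) (log2 fold change -3.61 ± 0.0411). The MAPK phosphatases Dusp4 and Dusp5 fell as well (-2.07 and -2.52). Spry1, an inhibitor of receptor signals that also marks quiescent muscle stem cells, rose from 0.962 to 2.26 CPM (median 1.41) to 48.8 to 60.7 CPM (median 54.2) (5.13), whereas Spry4 fell (-1.29).

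Extracellular matrix genes moved in both directions. Of 22 collagens, 12 were higher and 4 lower, and of 36 other matrix proteins and enzymes, 20 were higher and 10 lower. The shares over all genes were 27.1% higher and 24.9% lower. Col1a1 rose from 41.1 to 64.4 CPM (median 51) to 224 to 327 CPM (median 274) (log2 fold change 2.40), but its partner chain Col1a2 stood at medians of 772 and 952 CPM and was not called. Col6a1 rose (2.75) and Col6a3, of the same microfibril family, fell (-1.86). Nid1 fell from 2216 to 2518 CPM (median 2309) to 329 to 563 CPM (median 480.3) (-2.26), while Nid2, its basement membrane relative, rose from 50.9 to 63.8 CPM (median 56.6) to 368 to 528 CPM (median 451) (2.98). Thbs1 rose (2.27) and Thbs2 fell (-1.38), and Tnc, encoding the adhesion-modulating tenascin C, fell (-1.98). Fn1, fibronectin, was among the most abundant genes of both stages at 3152 to 5252 CPM (median 4215) and 3726 to 7117 CPM (median 5269) and was not called. The small proteoglycan Dcn and the matricellular Postn rose with log2 fold changes of 4.50 and 5.26. Among 20 integrin and syndecan genes, 11 were higher, the most by fold being Itgb1bp2 (8.44), which encodes the muscle integrin-binding chaperone melusin.

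The general cytoskeleton was lower in part, with 14 of 32 genes lower and 6 higher, beside 24.9% and 27.1% over all genes. Actb went from 5029 to 6036 CPM (median 5585) to 1908 to 2394 CPM (median 2062) (log2 fold change -1.37) and Actg1 changed alike (-1.34), with 23.5% and 40.2% of their 31-base stretches shared with other genes. Tagln2, an actin-bundling protein, fell by 2.09 on the log2 scale. Acta2, smooth muscle actin, rose from 424 to 575 CPM (median 485) to 1649.8 to 2225 CPM (median 1825), and Tubb6, a beta-tubulin, rose (1.45).

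Growth factor genes included some of the larger rises outside the contractile apparatus. Of 18 genes of the insulin-like growth factor (IGF) system, 11 were higher and 3 lower. Igf2 (chr7:142650766-142666816), an autocrine driver of myoblast differentiation, went from 0.629 to 1.41 CPM (median 0.829) to 238 to 348 CPM (median 306) (log2 fold change 8.40 ± 0.0578), with 61.9% of its 31-base stretches shared with other annotated genes. The neighbouring imprinted noncoding RNA H19 (chr7:142575529-142578143) was already at 243 to 395 CPM (median 344) in myoblasts and reached 9222 to 11383 CPM (median 10275) (4.96 ± 0.0551). It took up a mean of 1.04% of all counts in differentiated cells, second only to Rn18s-rs5. Of 12 long noncoding RNAs tested, 4 were higher and 4 lower, beside 27.1% and 24.9% over all genes. Among them were Malat1 (1.17), a nuclear speckle RNA that rose, and the small nucleolar RNA hosts Gas5 (-1.50) and Snhg1 (-1.57), which fell. The IGF binding proteins diverged, since Igfbp4 rose (5.11), Igfbp5 rose by less (0.73) and Igfbp2 fell (-1.65). Of 30 genes of the transforming growth factor-beta (TGF-beta) family, 16 were higher, among them Tgfb3 (2.80), Bmp4 (2.72) and Fst (3.92), the activin and myostatin trap follistatin. Of 16 Notch pathway genes, 4 were higher and 4 lower, close to the 27.1% and 24.9% over all genes. The ligand Dll1 rose (4.11) and Jag2 fell (-1.21), the receptor Notch3 rose (1.75), and Notch1 and Notch2 were not called.

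More splicing regulators fell than rose. Of 36 splicing regulators, 6 were higher and 19 lower (median log2 fold change -0.68). Rbm24 (chr13:46418434-46431095), a regulator of muscle exons, went from 0.616 to 1.47 CPM (median 0.926) to 189.6 to 228 CPM (median 202) (log2 fold change 7.75 ± 0.0593). Rbfox1 rose from a median of 0.00742 to 13.3 CPM, Rbm38 rose (2.43) and Rbm20, which controls titin exons, rose (1.49). Ptbp1, a repressor of many muscle exons, fell from 510.3 to 559 CPM (median 548) to 134 to 163 CPM (median 142) (-1.89). Srsf1, Srsf2 and Srsf3 fell with log2 fold changes of -1.25, -1.26 and -1.12. Celf2 rose (0.87) and Celf4 fell (-4.04), while Celf1 and Mbnl1 were not called. These are totals per gene and do not report exon use.

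Ribosome biogenesis genes fell with the cell cycle. Of 34 tested, 25 were lower and none higher (median log2 fold change -0.98), and none reached 4-fold. Npm1 and Ncl, abundant nucleolar proteins, went from medians of 1043 and 1466 CPM to 291 and 488 CPM. By contrast, 16 of 25 sterol synthesis genes were higher and none lower (median 0.66), such as Dhcr7 (1.66) and Ebp (1.64), which encode late steps, and Hmgcs1 (1.02), an early one, while Sqle was not called.

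Protein breakdown and innate immune genes were more often higher than lower. Of 28 ubiquitin ligase, autophagy and FoxO genes, 16 were higher and none lower. Trim63 (chr4:134315120-134329629), the sarcomeric ubiquitin ligase MuRF1, rose from 0 to 0.101 CPM (median 0.0313) to 46.5 to 50.8 CPM (median 49.5) (log2 fold change 10.62), and Fbxo32, encoding atrogin-1, from 19.7 to 23.1 CPM (median 22.2) to 109.6 to 125 CPM (median 115) (2.40). Foxo1 and Map1lc3a, an autophagosome protein, rose by 1.79 and 2.83. Of 26 interferon response and antigen presentation genes, 17 were higher and 1 lower, mostly at low levels: Oasl2 reached a median of 1.56 and Irf7 of 1.34 CPM.

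Reference genes often used for scaling were not level across the stages. Of 18 such genes, 9 were lower and 1 higher, with a median log2 fold change of -0.61. Rpl13a, which the study used in its PCR, fell by 0.80 on the log2 scale, and Actb by more, as given above. Gapdh (-0.37), Sdha (0.04), Csnk2a2 (-0.17) and Ap3d1 (0.18) lay within the limit, although 27.2% of the 31-base stretches of Gapdh are shared with other genes. The scaling of the counts assumes that most genes do not change, and RNA per cell was not measured.

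Markers of other cells were measured because a differentiated culture is a mixture. Among 10 genes of reserve and quiescent satellite cells, 5 were higher and 1 lower, with Pax7 and Cd34 not called and Fgfr4 higher (2.12). Their summed level was 201 to 258 CPM in myoblasts and 302 to 334 CPM in differentiated cells. Of 8 fibroblast markers tested, 7 were higher, with Pdgfrb at medians of 62.4 and 191 CPM, Pdgfra at 7.65 and 13 CPM, and Lum at no count in myoblasts and 0.0157 to 0.495 CPM (median 0.281) in differentiated cells, while Thy1 and Tcf21 did not pass the filter. The summed level of that list was 1266 to 1428 CPM in myoblasts and 1112 to 1190.0 CPM in differentiated cells. For smooth muscle, 5 of 10 were higher and 2 lower, and the defining Myh11 was at medians of 0.165 and 0.183 CPM. The summed levels were low for endothelial cells, at 0.355 to 0.540 CPM in myoblasts and 1.59 to 2.29 CPM in differentiated cells, where Pecam1 did not pass the filter. For leukocytes they were 7.96 to 10.4 and 5.85 to 7.71 CPM, and Ptprc did not pass the filter. Of the adipocyte markers 9 of 12 did not pass the filter, Adipoq and Fabp4 among them, and the sums of the other 3 were 24.4 to 28.5 and 30.5 to 35.9 CPM. Nerve and glia markers summed to 162 to 186 and 27 to 36.3 CPM, epithelial markers to 13.6 to 19.6 and 16.5 to 21.2 CPM, and bone and cartilage markers to 99.7 to 116 and 50.2 to 60.2 CPM. The cardiac list rose from 61.1 to 80.1 to 1016 to 1203 CPM, carried mainly by Tnnt2, whose level is given above, while Nppa did not pass the filter. Myh6 was at 36.45 to 47.47 CPM in B25 and 25.91 to 37.48 CPM in B28, and 29.2% of its 31-base stretches are shared with other genes. Developing skeletal muscle also expresses Tnnt2 and Myh6. The part of such cells in the results was not tested.

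The genes with the largest changes, taken by size alone, included sarcomere genes among the rises and the proliferins and neurofilaments among the falls. Among the 12 largest rises of genes with at least 10 CPM in differentiated cells were Myh8, C130080G10Rik, Dmd, Art1, Ckm, Dhrs7c, Mb, Actn2, Fxyd6, Mybph and Mybpc2. Myh8 led among those with over 3 counts in myoblasts, with 56 counts over the 12 myoblast libraries and 353217 over the 12 differentiated ones (log2 fold change 12.67 ± 0.185). Art1, an arginine ADP-ribosyltransferase of muscle, reached 28.8 to 39.3 CPM (median 35.2) and Dhrs7c, a dehydrogenase of the sarcoplasmic reticulum, 29.1 to 40.6 CPM (median 34.4). For C130080G10Rik, Fxyd6 and Mybpc2, with 2 counts each in myoblasts, the fold ratios of the levels had counting intervals of 2192 to 65388, 1217 to 36297 and 1352 to 40332, and 37.2% of the 31-base stretches of C130080G10Rik are shared with other genes. The limit given above for Dmd holds here too.

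The 12 largest falls were Serpinb2, Selp, Prl2c2, Prl2c3, Ngfr, Nefl, Hhip, Prl2c5, Nefm, Apln, Slc14a1 and 1700012B09Rik. Serpinb2 (chr1:107511423-107535478), an inhibitor of plasminogen activators, fell from 70.7 to 99.2 CPM (median 80.5) to 0.0849 to 0.296 CPM (median 0.188) (log2 fold change -8.85 ± 0.0695, adjusted p 2.57e-32). Nefl and Nefm, the light and medium neurofilaments, fell from medians of 744 and 358 CPM to 8.75 and 6.56 CPM. The proliferins Prl2c2, Prl2c3 and Prl2c5 fell with log2 fold changes of -8.26, -8.18 and -5.80, but these near-copies cannot be counted apart with certainty, since 89.8%, 67% and 46.8% of their 31-base stretches are not unique. Ngfr, a neurotrophin receptor, and Hhip, a hedgehog inhibitor, fell by 7.42 and 6.32 on the log2 scale. None of the 24 genes overlapped between stages, which their selection required.

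The most abundant genes also turned over. In myoblasts, the 10 genes with the highest mean CPM were Rn18s-rs5, Vim, Eef1a1, Actb, Actg1, Fn1, Hsp90ab1, Eef2, Pkm and Lgals1. In differentiated cells they were Rn18s-rs5, H19, Eef1a1, Fn1, Myh3, Acta1, Ttn, Eef2, Nes and Des. Rn18s-rs5, Eef1a1, Fn1 and Eef2 were in both groups of 10, and none of these 4 passed the limit between the stages over the times together. Nes, the intermediate filament nestin, rose from 1362 to 1632 CPM (median 1464) to 2790.1 to 3369.6 CPM (median 3116) (log2 fold change 1.06).

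The stage difference changed with time for few genes. A test of the stage-by-time interaction over 1 h, 3 h and 6 h called 181 of 16582 genes (1.09%), of which 121 had a more negative stage difference at 6 h than at 1 h. Of the 44 mitosis genes, 22 were among them, and 12 of the 47 replication genes. The difference was more negative at 6 h for 44 of 44 mitosis genes (median change -0.54 on the log2 scale) and for 45 of 47 replication genes (median -0.28), against 0.0033 over all genes. The count of 181 depended on single libraries: it was 91, 97, 101 and 103 without the 6 h libraries differentiated replicate 10 and myoblast replicates 7, 10 and 9, and 119 without the 3 h myoblast replicate 10. It was 112 and 288 without the 1 h differentiated replicates 9 and 7. The summed mitosis level of differentiated cells was 1269 to 1853 CPM at 1 h, 1331 to 1549 CPM at 3 h and 1067 to 1311 CPM at 6 h, so that 1 of the 4 libraries at 1 h lay within the range at 6 h. In myoblasts it was 7204 to 7636, 7318 to 7620 and 7616 to 7878 CPM. The experiments differed in size: the median log2 change from 1 h to 6 h was -0.13 in B25, with 40 of 44 genes down, and -0.77 in B28, with 44 of 44 down, and it was 0.066 in B27 and 0.060 in B31. The larger part of the decline thus came from B28, where the 1 h libraries were the highest of all differentiated libraries.

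**Figure D5:**
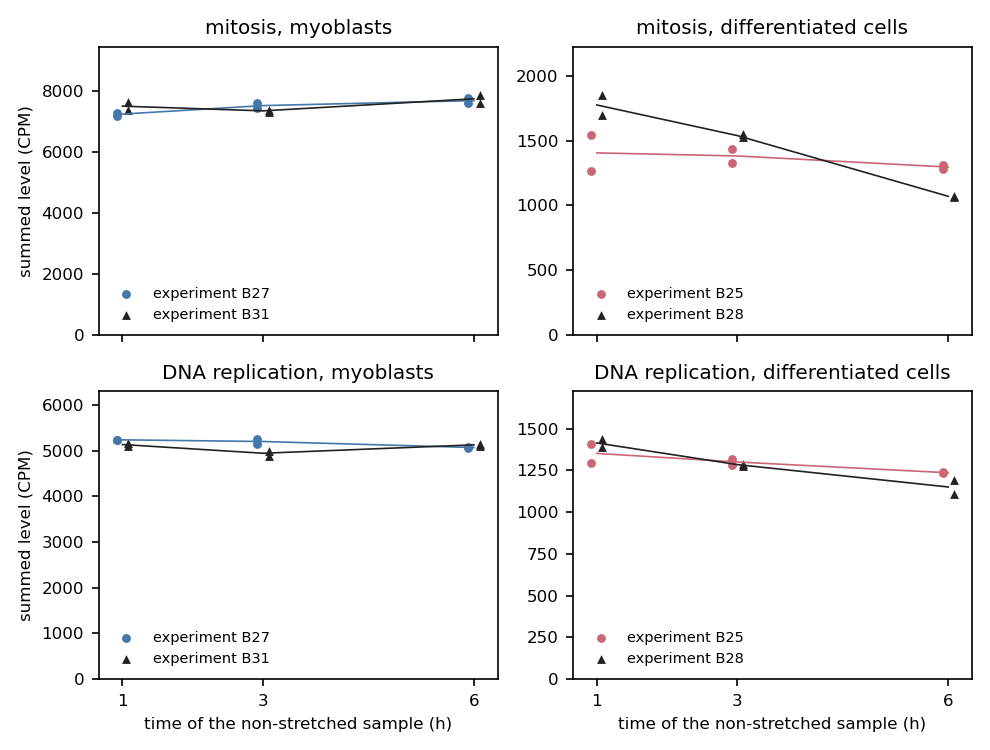
Points are the summed CPM of the 44 mitosis genes (top) and 47 DNA replication genes (bottom) in each library against time, with a panel per stage, a symbol per experiment and lines through the experiment means, and all vertical axes start at 0. In differentiated cells both sums were lower at 6 h than at 1 h on average, and experiment B28 started higher and ended lower than B25.

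The genes with the lowest interaction p-values were Esco2, Acta1, Cenpl, Cenph and Optn. Esco2, a cohesin acetyltransferase, was at 8.05, 9.07, 9.64 and 9.73 CPM in the 4 differentiated libraries at 1 h and at 5.25, 5.37, 5.88 and 5.98 CPM at 6 h, while myoblasts were at 31.7 ± 2.29 CPM (SD, n = 4) at 1 h and 35.2 ± 1.08 CPM at 6 h (adjusted interaction p 5.09e-05). The centromere genes Cenpl and Cenph behaved alike (adjusted interaction p 0.00164 and 0.00164). For Acta1 the change with time lay in the myoblasts, at 4.81, 5.24, 5.37 and 6.64 CPM at 1 h and 2.83, 3.18, 3.19 and 3.40 CPM at 6 h, whereas the differentiated libraries ran from 4133 to 4715 CPM and from 4123 to 4618 CPM (adjusted interaction p 0.00164). Myog in myoblasts was at 0.95 to 2.48 CPM at 1 h, 1.30 to 3.30 CPM at 3 h and 0.667 to 1.00 CPM at 6 h (adjusted interaction p 0.0452). Its fall from 1 h to 6 h lay in experiment B31, at 1.88 and 2.48 CPM against 0.762 and 0.667 CPM, and not in B27, at 0.95 and 1.06 CPM against 1.00 and 0.92 CPM. Optn, an autophagy receptor, was lower in myoblasts at 6 h, at 31.3 to 31.7 CPM, than at 1 h, at 36.1 to 38.2 CPM (adjusted interaction p 0.00164).

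The stretched libraries, from the same experiments apart from 1 differentiated library of an experiment coded B17 and 1 myoblast library whose label reads B231, gave a further set of 12 against 12. Of the 4492 genes higher without stretching, 4228 were also higher in stretched differentiated cells against stretched myoblasts, 183 were not called and 81 did not pass the filter there. Of the 4134 lower genes, 3635 were also lower, 440 were not called and 59 did not pass the filter. No gene changed direction. Myog, Ckm and Cdk1 had log2 fold changes of 10.04, 13.15 and -2.59 in the stretched libraries, beside 9.23, 12.14 and -2.74 in the non-stretched ones. Stage was tied to experiment in these libraries too, so this comparison does not separate them.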

How the data were processed

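Gene counts were taken as the authors deposited them, in 1 table per stage. According to the study's methods, stranded mRNA libraries were aligned to the Ensembl mm10 genome and transcriptome with STAR and quantified with Salmon, and the deposited values are whole-number counts per gene symbol, not normalized. Salmon divides reads of shared sequence between genes by estimation, which affects near-identical genes. The annotation's release is not given in the sources used here. Both tables held 47480 symbols, joined by symbol, of which 95.2% matched GENCODE vM21 (GRCm38), the source of positions and transcript lengths. Promoter sequences are those of RefSeq, and 250 bases before the first listed start were searched.

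The 24 non-stretched libraries (4 per stage and time, grouped by their labels) were fitted together with edgeR (version 4.0.16, R 4.3.3): filterByExpr, TMM scaling, 6 groups, quasi-likelihood test of the mean of the 3 differentiated groups against that of the 3 myoblast groups, and Benjamini-Hochberg adjustment over 16582 genes, with 18 residual degrees of freedom. SE was the absolute log2 fold change divided by the square root of F. Genes were called at an adjusted p under 0.05 and an absolute log2 fold change of at least 0.58, and at 2 for 4-fold. Every adjusted p in the text is from this fit or from its F test of the stage-by-time interaction. The study made no test between stages, so the fit is not its own. For genes with no count in a stage, fold changes are bounds against a floor of 3 counts over its 12 libraries. Intervals of ratios with 1 to 3 counts are exact at the 0.95 level and cover counting error only.

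Genes named were list members, the 12 largest rises and 12 largest falls among 4-fold genes with at least 10 CPM in the higher stage and no overlap, the 10 most abundant genes per stage and the 5 lowest interaction p-values. The members, lists and markers were chosen with earlier results of these data known, and no list was tested as a set. Tested on simulated counts with 200 genes changed 2-fold among 16174, edgeR and DESeq2 (version 1.42.0) each recovered 99.5% with 4 false calls. The changed genes were few, well counted and even in direction, whereas 89.3% of the genes tested here had an adjusted p under 0.05 in edgeR. The simulation thus does not show how scaling or calls behave with so many changes or at low counts. Libraries of a group were compared for duplicates, and their counts differed by more than sampling noise in all 36 pairs (chi-square per degree of freedom at least 2.85). Stretched libraries served only as an alternative, and mitochondrial genes were not analysed here. The values of a few single genes are not reported here.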

Additional observations from a re-analysis of the deposited data

Results flagged for a closer look

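Genes named above whose stage difference varied with time, by edgeR's interaction test with Benjamini-Hochberg adjustment, fell into opposite directions, and the values here are the log2 fold change at 6 h minus that at 1 h. The difference became more negative for Esco2 (-0.855, adjusted p 5.09e-05), Cenph (-0.591), Cenpl (-0.560), Cdk1 (-0.540, adjusted p 0.0110) and Mcm5 (-0.385, adjusted p 0.0433), all genes of replication or chromosome segregation whose level in differentiated cells was lower at 6 h than at 1 h. It became larger for Myog (0.861, adjusted p 0.0452), Acta1 (0.793), Tnnt2 (0.501, adjusted p 0.00237) and Optn (0.318). Acta1, Cenph, Cenpl and Optn shared an adjusted p of 0.00164. For Myog, Acta1 and Tnnt2 the levels of differentiated cells at 1 h and 6 h overlapped, and those of myoblasts were lower on average at 6 h, for Myog in experiment B31 and not in B27. Tnnt2, for example, was at 48.4 to 52.6 CPM in myoblasts at 1 h and at 34.8 to 37.9 CPM at 6 h.

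Single libraries stood apart from the other 3 of their group in 3 of 68 groups examined by Dixon's criterion, which flags about 1 in 20 groups by chance. Myog was at 945.9 CPM in 1 differentiated library at 3 h, against 888 to 896 CPM in the others. Rn18s-rs5 was at 37431 CPM in 1 myoblast library at 1 h and at 19237 CPM in 1 differentiated library at 1 h, and it was the highest-count symbol of both stages.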

How the results depend on the processing

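The 4 stage counts stayed within 1.5 times of 4492, 4134, 1574 and 667 under DESeq2, other scalings, an additive time term, each time point alone, experiment sums (2 against 2), stretched libraries and the omission of any experiment. Without a fold-change limit, 7464 genes were higher and 7348 lower, in place of both the 0.58 and the 4-fold counts. With no filter on low counts, 2540 and 1146 genes were at least 4-fold higher and lower, and with at least 10 counts in every library 601 and 383, since such a minimum removes genes near 0 in a stage. Leaving out 1 replicate gave 4531 to 4621 higher, 4114 to 4219 lower, 1588 to 1624 at least 4-fold higher and 663 to 692 at least 4-fold lower. The main counts of 4492 and 1574 lay below their ranges. These fits tested 16749 to 16813 genes, against 16582 in the main fit, so the ranges also hold a change of the genes that passed the filter.

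The count of genes whose stage difference varied with time was less stable, at 370 with DESeq2 and 91 to 288 with 1 replicate left out, and the cause was not tested. Genes differing between experiments numbered 21 to 44 in myoblasts and 155 to 287 in differentiated cells with 1 replicate left out. Replicate numbers did not pair the stages (12 pairs, correlations of deviations from -0.071 to 0.0016), and with a replicate block 4493, 4135, 1575 and 670 genes were called and 222 varied with time.

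Of 3712 log2 fold changes of the 235 genes named, under 16 alternatives, 3702 kept the call, and its direction where the gene was called. Direction was not compared for genes called in neither fit, and 204 of the 235 were called in the main fit. Besides Myod1, those that changed were Uqcrq (0.55 at 1 h alone) and Igfbp5 (0.58, just under the limit, at 3 h alone), which lost the call, and Fn1 (0.71 at 6 h alone), Ankrd1 (0.65 in stretched libraries) and Cd34 (-0.65 at 6 h alone, -0.66 and -0.63 without B27 and B28), which gained it. Rn18s-rs5, not called over all times, turned direction to 0.66 at 3 h alone. With 1 replicate left out, all 5640 values kept the call, and its direction where the gene was called. Depth limits genes of a few counts per library, and stage cannot be told apart from experiment, medium, density and time in culture.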
